A study of Mus musculus with 6 samples.

Results

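Interferon-stimulated genes are the genes whose transcription is switched on when interferon reaches a cell, and 47 of them are followed here through 6 RNA-seq libraries of C3H10T1/2 cells. The 47 were chosen by name from known interferon targets after opposite changes of such genes had been seen between the line with a hairpin against NFIB and the line with a hairpin against MLL1. All comparisons of a knockdown line with the control line, and of days within a line, are therefore given as descriptions with no test. Each of the 47 symbols matched 1 gene of the 55401 in the table of counts, of which 29043 had at least 1 count and 15845 had a mean of at least 10 counts over the 6 libraries. The 46 that reached that mean enter the counts and medians; Trim25, a ubiquitin ligase that acts on the RNA sensor Ddx58, had between 0 and 2 counts in a library and is left out of them. A gene that reached the mean through the libraries in which it was high had to differ between libraries, so that no count over the 46 is offered as support.

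The study followed osteogenic differentiation of C3H10T1/2, a mouse mesenchymal stem cell line, when the transcription factor NFIB or the histone H3 lysine methyltransferase MLL1 was knocked down. Total RNA was sequenced from 3 lines at 2 time points, with 1 library per condition. The shControl line, given as WT in genotype, carries a control hairpin, the shNFIB line a hairpin against Nfib placed in the 3′ untranslated region, and the shMLL1 line a hairpin against Kmt2a, the gene of MLL1. Cells were untreated at day 0 and had spent 7 days in osteogenic medium at day 7, which held the glucocorticoid dexamethasone at 0.1 μM, β-glycerophosphate at 20 mM and ascorbic acid 2-phosphate at 100 μg/mL. Whether a line is a clone or a pool of transduced cells is not given in the sources used here. With 1 library per condition there is no replicate check of a difference between lines at a single day. A difference between lines shared by both days was not tested. The hairpin, the history of the line and the library cannot be told apart.

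Interferons of type I bind the receptor formed by Ifnar1 and Ifnar2, whose kinases Jak1 and Tyk2 phosphorylate Stat2. Stat2 and Irf9 act in the complex ISGF3, which binds the interferon-stimulated response element, while interferon of type II acts at the gamma-activated site. The induced genes include the sensors that detect viral RNA, enzymes that stop its translation or destroy it, and the machinery of antigen presentation. Part of the set, Stat2, Irf9 and Irf7 included, feeds back on the pathway itself.

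Library totals were 32662704 counts in shControl, 34774066 in shNFIB and 30838517 in shMLL1 at day 0, and 29086652, 30406559 and 21608680 at day 7. Levels are in CPM, the counts of a gene per 1000000 counts of its library after TMM scaling, and intervals are exact 95% Clopper-Pearson intervals that cover counting error only. A floor of 3 counts corresponds to between 0.0939 and 0.123 CPM. Mitochondrial transcripts took between 2.01% and 7.77% of counts, the low and high ends being shControl before and after differentiation. Their share was 2.31% in shNFIB and 2.65% in shMLL1 at day 0, the libraries in which most of the 46 genes were lowest and highest.

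The hairpin targets were low in the lines named for them. Nfib, at chr4:82290173-82705750 of GRCm38, stood at 116 CPM in shControl, 35.3 in shNFIB and 65.5 in shMLL1 at day 0, and 83.5, 8.15 and 72.7 in the same order at day 7. It was 3.29-fold lower in shNFIB than in shControl at day 0 and 10.2-fold lower at day 7, and also 1.78-fold lower in shMLL1 at day 0. Kmt2a, at chr9:44803355-44881296, stood at 74.7 CPM in shControl, 86.5 in shNFIB and 30.9 in shMLL1 at day 0, and 66.3, 94.0 and 34.8 in the same order at day 7. It was 2.42-fold lower in shMLL1 at day 0 and 1.90-fold lower at day 7, and was not lower in shNFIB.

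Mesenchymal markers were high and leukocyte markers low. Of 12 mesenchymal markers 11 were over 1 CPM in some library, led by Fn1, with Nt5e between 1 and 6 counts, and their sum was 20436, 28650.5 and 13291 CPM in shControl, shNFIB and shMLL1 at day 0 and 10436, 12527 and 11406 CPM at day 7. Of 14 leukocyte markers 3 were over 1 CPM in any library, Adgre1, Tyrobp and Cd3e had 0 counts in all 6, and the pan-leukocyte gene Ptprc had at most 3. The sum was 25.2, 24.5 and 27.6 CPM in shControl, shNFIB and shMLL1 at day 0 and 27.8, 18.7 and 20.0 CPM at day 7, most of it Cd14. Of 7 endothelial markers 2 passed 1 CPM, and their sum was 20.8, 27.6 and 12.1 CPM in shControl, shNFIB and shMLL1 at day 0 and 3.54, 6.77 and 4.59 CPM at day 7, led by Tek. Of 6 epithelial markers 1 passed 1 CPM, Cdh1, with Epcam and Krt18 at 0 in all 6 libraries, and their sum was 9.14, 6.14 and 8.25 CPM in shControl, shNFIB and shMLL1 at day 0 and 1.18, 0.203 and 0.615 CPM at day 7. In bulk RNA, fewer cells that express a gene and less of its RNA per cell cannot be told apart.

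At day 0 the interferon-stimulated genes were spread widely over the 3 lines, lowest in shNFIB and highest in shMLL1. Of the 46, 42 stood in the order shMLL1 over shControl over shNFIB, 3 were lowest in shControl, and Ifi27 alone was lowest in shMLL1. The share of all genes in these orders is not given here, and nothing is read from these counts. Summed over the 47 genes, the level was 2035 CPM in shControl, 966 in shNFIB and 5547 in shMLL1, and the median gene stood at 21.9, 5.29 and 76.8 CPM. The highest of the 3 lines exceeded the lowest by a median of 18.4-fold, against 1.64-fold over all 15845 genes. Past a 2-fold difference, the shNFIB line had 33 of the 46 below the control line and 2 above it, beside 6.13% and 6.83% of all genes, and shMLL1 had 31 above it and 1 below, beside 9.26% and 9.32%. The median log2 fold change was -1.89 for shNFIB and 1.43 for shMLL1, beside 0.08 and -0.05 for all genes. With genes at 0 counts set to their bound at the floor, the medians were -1.73 and 1.43. Both differences passed 2-fold in 28 of the 46 and in 149 of the 15845 genes (0.94%); since the set was chosen for this pattern and both comparisons share the shControl library, nothing is read from these shares.

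At day 7 the lines lay closer together and in another order. The sum over the 47 genes was 2304 CPM in shControl, 4655 in shNFIB and 2174 in shMLL1, and the median gene stood at 27.9, 59.6 and 31.3 CPM. Now shNFIB was the highest line for 40 of the 46 genes, shControl for 4 and shMLL1 for 2. The matching shares of all genes are not given here, and nothing is read from these counts. The highest line exceeded the lowest by a median of 2.46-fold, against 1.61-fold over all genes. Past 2-fold, shNFIB had 26 genes above shControl and 1 below, beside 7.53% and 10.9% of all genes, with a median log2 fold change of 1.12. In shMLL1, 5 were higher and 2 lower than in shControl, beside 6.72% and 5.89% of all genes, with a median of -0.03. Of the 46 genes, 20 were lower in shNFIB at day 0 and higher at day 7, both past 2-fold, as were 69 of the 15845 genes (0.435%).

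**Figure D1:**
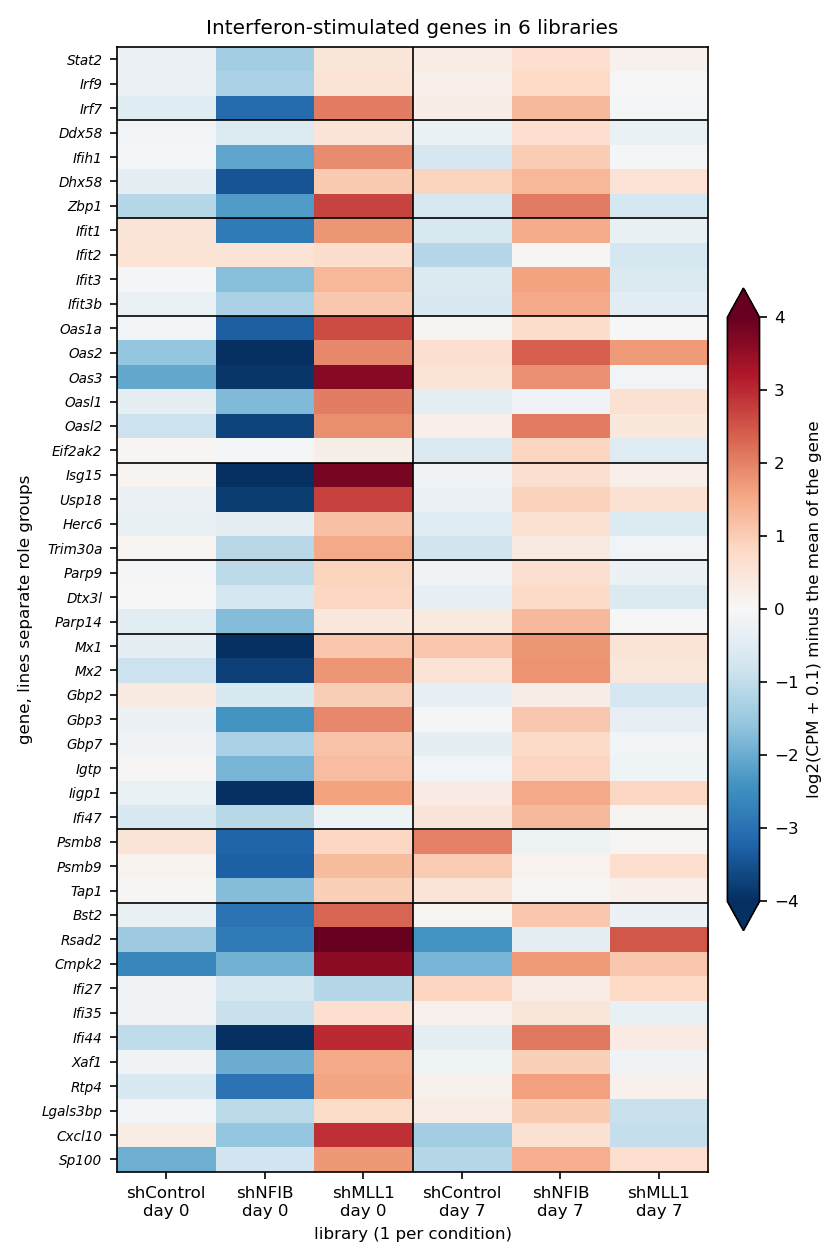
Each row is 1 of 46 interferon-stimulated genes and each column 1 library; colour gives log2(CPM + 0.1) minus the mean of the gene over the 6 libraries, with black lines between role groups and between day 0 and day 7. The shNFIB day 0 column is the lowest for 39 of the 46 genes, and the highest value lies in shMLL1 at day 0 for 29 and in shNFIB at day 7 for 15. The matching shares of all genes are not given here.

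Within a line, day 7 differed from day 0 in opposite directions in the knockdown lines. In shNFIB 42 of the 46 genes were past 2-fold higher at day 7 and 0 lower, beside 15.5% and 13.2% of all genes, with a median log2 fold change of 3.24, or 2.92 with genes at 0 counts set to their bound. In shMLL1 31 were lower and 1 higher, beside 18.8% and 23.5%, with a median of -1.42. In shControl 32 of the 46 stayed within 2-fold, 10 were higher and 4 lower, beside 20.2% and 14.8% of all genes, with a median of 0.34. Higher in shNFIB and lower in shMLL1 at day 7, both past 2-fold, were 29 of the 46 genes and 127 of the 15845 (0.802%). Each of these comparisons reuses a library of the line comparisons above.

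**Figure D2:**
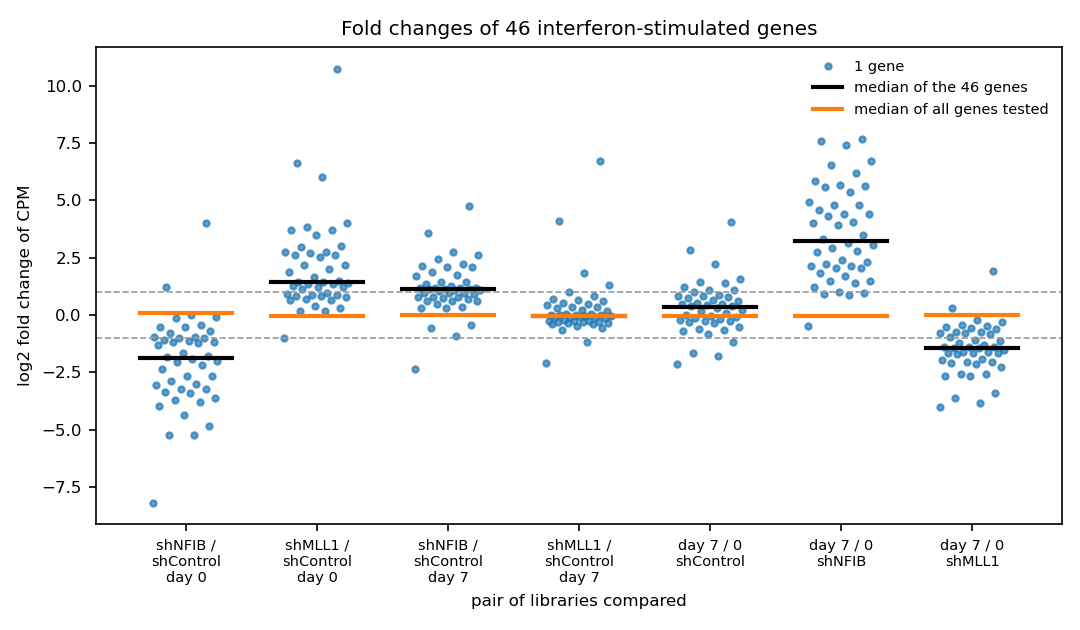
The vertical axis is the log2 fold change of CPM for each pair of libraries on the horizontal axis, 1 point per gene for 46 interferon-stimulated genes, with black and orange bars for the median of these genes and of all 15845 genes and dashed lines at 2-fold. The black bar lies at -1.89 for shNFIB and 1.43 for shMLL1 at day 0, and at 3.24 and -1.42 for day 7 against day 0 in those lines, and points of genes with 0 counts in a library depend on the prior count.

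Among the factors that carry the signal, Irf7, the regulator that amplifies type I interferon production, differed most. Irf7 stood at 17.5 CPM in shControl, 2.82 in shNFIB and 101 in shMLL1 at day 0, and 28.9, 59.6 and 23.8 in the same order at day 7. It was low in shNFIB and high in shMLL1 at day 0, and at day 7 shNFIB held the highest level. The day 0 log2 fold change was -2.64 (counting interval -2.98 to -2.31) in shNFIB and 2.53 (counting interval 2.40 to 2.66) in shMLL1. Stat2, the STAT specific to type I and III signalling, stood at 90.7 CPM in shControl, 40.9 in shNFIB and 149 in shMLL1 at day 0, and 131, 168 and 121 in the same order at day 7. Irf9, the DNA-binding part of ISGF3, stood at 71.0 CPM in shControl, 33.8 in shNFIB and 123 in shMLL1 at day 0, and 95.8, 147 and 83.7 in the same order at day 7. Both had the same order of lines as Irf7 at each day over a narrower range: Stat2 was 2.22-fold lower in shNFIB and 1.64-fold higher in shMLL1 at day 0, and Irf9 2.10-fold lower and 1.74-fold higher. All 3 factors were past 2-fold lower in shNFIB at day 0, and Irf7 alone was past 2-fold higher in shMLL1, beside 6.13% and 9.26% of all genes. Irf9 shares exonic bases with Rnf31 on the same strand, and Irf7 with Phrf1 on the opposite strand.

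Ddx58 varied over the narrowest range of the 4 sensors of foreign nucleic acid. All 4 were past 2-fold higher at day 7 than at day 0 in shNFIB, beside 15.5% of all genes. Ddx58, which encodes the RNA helicase RIG-I, stood at 108 CPM in shControl, 80.7 in shNFIB and 169 in shMLL1 at day 0, and 97.0, 187 and 98.4 in the same order at day 7. Its highest level, in shNFIB at day 7, was 2.32-fold over its lowest, in shNFIB at day 0. Zbp1, a sensor of left-handed double helices that can trigger necroptosis, stood at 4.95 CPM in shControl, 2.19 in shNFIB and 71.6 in shMLL1 at day 0, and 6.92, 46.1 and 6.72 in the same order at day 7. It was high in shMLL1 at day 0 and in shNFIB at day 7 and low in the other 4 libraries; its log2 fold change of 2.74 (counting interval 2.53 to 2.95) in shNFIB against shControl was the largest at day 7 among genes of the set with at least 10 counts in both libraries. Dhx58, the helicase LGP2 that modulates the other sensors, stood at 9.55 CPM in shControl, 1.01 in shNFIB and 25.1 in shMLL1 at day 0, and 22.5, 31.1 and 18.1 in the same order at day 7. It was 9.39-fold lower in shNFIB at day 0 and 2.63-fold higher in shMLL1. Ifih1, the sensor MDA5 of long double-stranded RNA, ranged from 1.93 CPM in shNFIB to 32.2 in shMLL1 at day 0.

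The IFIT proteins, which bind RNA ends that lack host methylation or block translation, did not behave as a block at day 0. Ifit1 stood at 171 CPM in shControl, 16.5 in shNFIB and 399 in shMLL1 at day 0, and 76.6, 330.0 and 96.0 in the same order at day 7. Ifit3 stood at 110.5 CPM in shControl, 34.9 in shNFIB and 284 in shMLL1 at day 0, and 75.7, 349.8 and 76.0 in the same order at day 7. Both were lowest in shNFIB at day 0 and high in shMLL1 at day 0 and shNFIB at day 7. Ifit2 stood at 96.1 CPM in shControl, 97.1 in shNFIB and 107 in shMLL1 at day 0, and 30.2, 69.0 and 40.9 in the same order at day 7. At day 0 its levels were nearly level over the 3 lines, with a log2 fold change of 0.02 (counting interval -0.06 to 0.09) for shNFIB, a sign that turns under library size and DESeq2 scaling, while at day 7 shNFIB was 2.28-fold higher than shControl. Ifit1 was 10.4-fold lower in shNFIB at day 0 and 4.31-fold higher at day 7, and Ifit3 3.17-fold lower and 4.62-fold higher. Reads that match Ifit3 and its near-copy Ifit3b alike may be lost at the paper's filter on mapping quality, so that their levels are uncertain. Ifit3b had log2 fold changes of -1.02 in shNFIB and 1.36 in shMLL1 at day 0. At day 7 all 4, which are neighbours of the same family, were past 2-fold above shControl in shNFIB, beside 7.53% of all genes.

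The oligoadenylate synthetases, which make the 2′-5′ oligoadenylate that activates RNase L, spanned wide ranges. Oas2 stood at 14.2 CPM in shControl, 1.08 in shNFIB and 159 in shMLL1 at day 0, and 66.5, 221 and 135 in the same order at day 7. Its levels were lowest in shNFIB at day 0, 13.1-fold under shControl, and highest in shNFIB at day 7. Oas1a stood at 19.0 CPM in shControl, 2.03 in shNFIB and 128 in shMLL1 at day 0, and 22.1, 33.8 and 20.6 in the same order at day 7. It was 9.37-fold lower in shNFIB and 6.73-fold higher in shMLL1 at day 0. Oas3 had 12 counts in shControl, 1 in shNFIB and 735 in shMLL1 at day 0, and 83, 203 and 42 at day 7. It was 64.1-fold higher in shMLL1, the largest difference from shControl at day 0 among genes of the set with at least 10 counts in both libraries, and with 1 count in shNFIB the log2 fold change there was -3.40 (counting interval -8.99 to -0.81). Oasl2 ranged from 3.04 CPM in shNFIB at day 0 to 173 at day 7 in the same line, and Oasl1 had between 0 and 39 counts. Eif2ak2, the kinase PKR that halts translation on double-stranded RNA, stood at 124 CPM in shControl, 114 in shNFIB and 139 in shMLL1 at day 0, and 79.5, 213 and 83.0 in the same order at day 7. In contrast with the synthetases it was nearly level over the lines at day 0 and 2.68-fold above shControl in shNFIB at day 7. Of the 6 genes 5 were past 2-fold lower in shNFIB and 5 past 2-fold higher in shMLL1 at day 0, beside 6.13% and 9.26% of all genes; of the 5 lower, Oasl1 and Oas3 were at or under the floor in shNFIB, and for Oasl1, with 5 counts in shControl, the lower level is not measured.

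Isg15, a ubiquitin-like modifier attached to newly made proteins, held the lowest log2 fold change in shNFIB at day 0 among genes of the set with at least 10 counts in both libraries. Its counts were 1216 in shControl, 42 in shNFIB and 14853 in shMLL1 at day 0, and 977, 1644 and 990 at day 7. As levels these were 38.1 CPM in shControl, 1.33 in shNFIB and 492 in shMLL1 at day 0 and 32.0, 55.6 and 40.6 at day 7. The gene was nearly silent in shNFIB and abundant in shMLL1 at day 0, and within a 2-fold range over the 3 lines at day 7. It was 28.5-fold lower in shNFIB (log2 fold change -4.83, counting interval -5.32 to -4.40) and 12.9-fold higher in shMLL1 (log2 fold change 3.69, counting interval 3.61 to 3.78) at day 0. Usp18, the protease that removes Isg15 and also damps signalling at the type I receptor, stood at 22.6 CPM in shControl, 1.84 in shNFIB and 176 in shMLL1 at day 0, and 22.4, 50.9 and 40.3 in the same order at day 7. It followed Isg15 at day 0, 12.3-fold lower in shNFIB and 7.78-fold higher in shMLL1. Trim30a, a TRIM protein of mice, stood at 92.0 CPM in shControl, 39.6 in shNFIB and 247 in shMLL1 at day 0, and 51.7, 111 and 80.4 in the same order at day 7. It had the same order of lines at day 0 with smaller differences, 2.32-fold lower and 2.68-fold higher. Herc6, the ligase that joins Isg15 to proteins in mice, was level in shNFIB at day 0, with a value of -0.10 and higher in shMLL1 at 1.48. Herc6 shares 1269 exonic bases with Gm45193 on the same strand.

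**Figure D3:**
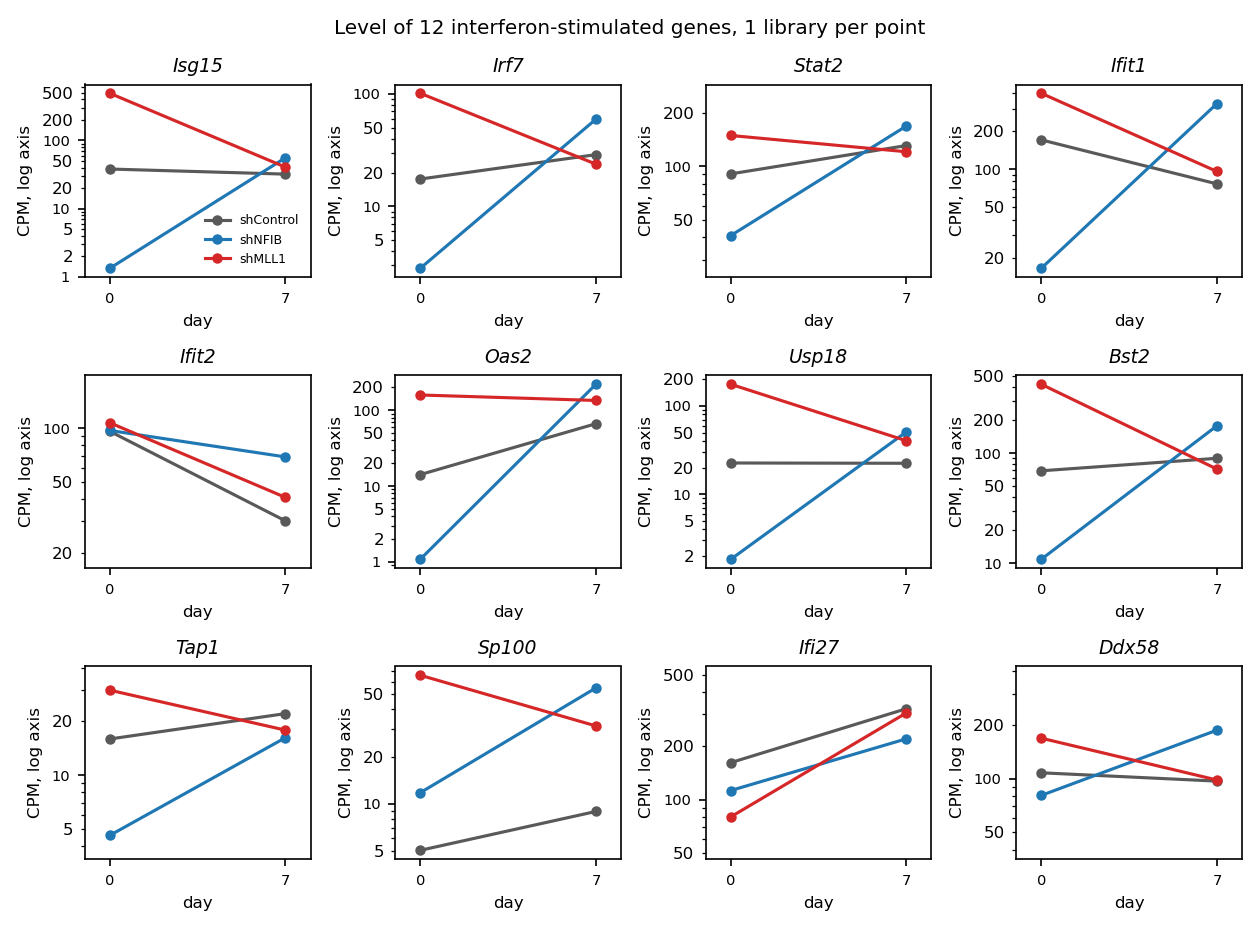
CPM on a log axis against day for 12 interferon-stimulated genes, 1 point per library and 1 line of colour per cell line (grey shControl, blue shNFIB, red shMLL1). For Isg15 the blue points lie at 1.33 and 55.6 CPM and the red points at 492 and 40.6, while for Ifi27 all 3 lines are higher at day 7 and for Ifit2 all 3 are lower.

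The PARP9-DTX3L pair, a ubiquitin ligase with an inactive ADP-ribosyltransferase, varied over a narrower range than Parp14. From lowest to highest library the range was 3.86-fold for Parp9, 2.91-fold for Dtx3l and 8.30-fold for Parp14. Parp9 stood at 52.6 CPM in shControl, 26.3 in shNFIB and 101 in shMLL1 at day 0, and 49.9, 85.4 and 46.5 in the same order at day 7. Dtx3l stood at 34.8 CPM in shControl, 21.4 in shNFIB and 62.3 in shMLL1 at day 0, and 27.9, 59.5 and 23.5 in the same order at day 7. Parp14, an ADP-ribosyltransferase, stood at 27.1 CPM in shControl, 10.9 in shNFIB and 49.1 in shMLL1 at day 0, and 48.3, 90.7 and 36.8 in the same order at day 7. All 3 were lowest in shNFIB and highest in shMLL1 at day 0, and highest in shNFIB at day 7. Of the 3, Parp14 alone was past 2-fold lower in shNFIB at day 0, at 2.48-fold, and none was past 2-fold higher in shMLL1, where folds were 1.93-fold, 1.79-fold and 1.81-fold for Parp9, Dtx3l and Parp14, beside 6.13% of all genes lower in shNFIB and 9.26% higher in shMLL1. Parp9 and Dtx3l overlap by 458 exonic bases on opposite strands, and reads there cannot be assigned without strand.

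Interferon-induced GTPases that act on viruses and on the vacuoles of intracellular pathogens made up 8 genes, 6 of them past 2-fold lower in shNFIB and 6 past 2-fold higher in shMLL1 at day 0, beside 6.13% and 9.26% of all genes. Igtp, an immunity-related GTPase, stood at 20.1 CPM in shControl, 5.29 in shNFIB and 46.3 in shMLL1 at day 0, and 18.0, 35.6 and 17.3 in the same order at day 7. It was 3.80-fold lower in shNFIB and 2.30-fold higher in shMLL1 at day 0. Gbp2, a guanylate-binding protein, stood at 40.7 CPM in shControl, 20.8 in shNFIB and 64.0 in shMLL1 at day 0, and 25.4, 38.4 and 20.1 in the same order at day 7. Ifi47 stood at 36.1 CPM in shControl, 25.1 in shNFIB and 47.7 in shMLL1 at day 0, and 77.7, 133 and 59.0 in the same order at day 7. Neither was past 2-fold from shControl in a knockdown line at day 0, and Ifi47 was higher at day 7 than at day 0 in all 3 lines. The genes of the Mx proteins, which block viral ribonucleoproteins, were among the most variable of the group. Mx2 is annotated as a polymorphic pseudogene, and Mx protein was not measured. Mx1 had log2 fold changes of -4.38 (counting interval -6.07 to -3.15) in shNFIB and 1.44 (counting interval 1.11 to 1.78) in shMLL1 at day 0, and Mx2 of -3.00 and 2.63. The remaining Gbp3, Gbp7 and Iigp1 had values between -3.81 and -1.17 in shNFIB at day 0. Igtp shares exonic bases with Irgm2, Gbp7 with a pseudogene and Ifi47 with Olfr56, all on the same strand.

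Antigen processing genes had their highest level of day 7 in shControl. Psmb8, a catalytic subunit of the immunoproteasome, had 39, 0 and 46 counts in shControl, shNFIB and shMLL1 at day 0 and 111, 21 and 21 at day 7. With 0 counts in shNFIB at day 0 it was at least 12.9-fold lower than in shControl, taken against the floor of 3 counts. Psmb9, its partner subunit, stood at 3.01 CPM in shControl, 0.19 in shNFIB and 6.66 in shMLL1 at day 0, and 5.54, 2.98 and 4.38 in the same order at day 7. Tap1, a subunit of the transporter that carries peptides into the endoplasmic reticulum, stood at 15.9 CPM in shControl, 4.59 in shNFIB and 29.9 in shMLL1 at day 0, and 22.1, 16.2 and 17.9 in the same order at day 7. All 3 were low in shNFIB at day 0. At day 7 the log2 fold change in shNFIB was -2.35 (counting interval -3.11 to -1.68) for Psmb8, -0.90 (counting interval -1.29 to -0.52) for Psmb9 and -0.45 (counting interval -0.62 to -0.28) for Tap1. Psmb8 was also the lowest in shMLL1 at day 7 among genes of the set with at least 10 counts in both libraries, at -2.08 (counting interval -2.83 to -1.40). Psmb9 and Tap1 overlap by 212 exonic bases on opposite strands, and Psmb8 overlaps an antisense gene by 498.

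The other effectors held the clearest exceptions. Averaged over the 6 libraries and per kilobase of exon, levels were highest in the set for Bst2 at 155, Isg15 at 145, Ifi27 at 137 and Lgals3bp at 130.4 CPM per kb, and for Bst2 and Isg15 the highest library was shMLL1 at day 0. Bst2, the tetherin that holds budding virions at the cell surface, stood at 69.3 CPM in shControl, 10.9 in shNFIB and 423 in shMLL1 at day 0, and 90.0, 177 and 71.8 in the same order at day 7. It was 6.36-fold lower in shNFIB and 6.10-fold higher in shMLL1 at day 0. Lgals3bp, a secreted glycoprotein, stood at 298 CPM in shControl, 153 in shNFIB and 539 in shMLL1 at day 0, and 394, 668 and 175 in the same order at day 7. Its levels had the common order at day 0, and at day 7 it was 2.26-fold lower in shMLL1 than in shControl. Ifi27, a small mitochondrial and nuclear membrane protein, stood at 161 CPM in shControl, 112 in shNFIB and 80.0 in shMLL1 at day 0, and 323, 219 and 306 in the same order at day 7. Against the rest of the set, it was 2.01-fold lower in shMLL1 at day 0, the smallest log2 fold change of that comparison (log2 fold change -1.01, counting interval -1.08 to -0.94), and within 2-fold under DESeq2 scaling; it was higher at day 7 than at day 0 in every line. Sp100, a component of nuclear bodies, stood at 5.04 CPM in shControl, 11.7 in shNFIB and 66.0 in shMLL1 at day 0, and 8.92, 54.8 and 31.3 in the same order at day 7. It was higher than shControl in both knockdown lines at both days, by 2.33-fold and 6.14-fold in shNFIB and 13.1-fold and 3.51-fold in shMLL1 at day 0 and day 7. Sp100 shares 104 exonic bases with an rRNA gene on the same strand.

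Neighbours on chromosome 12, Rsad2 and Cmpk2, were nearly silent in shControl at both days. Rsad2, the antiviral enzyme viperin, had 5, 0 and 485 counts in shControl, shNFIB and shMLL1 at day 0 and 1, 13 and 94 at day 7. Cmpk2, a nucleotide kinase, had 0, 2 and 217 at day 0 and 2, 55 and 29 at day 7. In shMLL1 at day 0 Cmpk2 was at least 76.6-fold above shControl, taken against the floor. Its place among the 2 genes called higher in shNFIB at day 0 rests on 2 counts against 0, so that Sp100 is the only gene there above the floor. Rsad2 and Cmpk2 were picked out after their values were seen, as was the chemokine Cxcl10, which stood at 2.16 CPM in shControl, 0.538 in shNFIB and 13.9 in shMLL1 at day 0, and 0.623, 2.71 and 0.861 in the same order at day 7.

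The test of day averages over the 3 lines and counts disagreement between them as error, so that a set chosen for opposite changes in the knockdown lines must hold few calls, and how few is not read as a result. With the line as a block, edgeR's quasi-likelihood test covered 45 of the 47 genes, and 2 were higher and 1 lower at day 7 at a Benjamini-Hochberg adjusted p under 0.05 over 15741 genes, where 17.7% of genes were called higher and 17% lower. Ifi27 rose (log2 fold change 1.30, SE 0.25, edgeR adjusted p = 0.0101), higher in 3 of 3 lines. Ifi47 rose (log2 fold change 1.27, SE 0.40, edgeR adjusted p = 0.0465), higher in 3 of 3 lines. Ifit2 fell (log2 fold change -1.18, SE 0.27, edgeR adjusted p = 0.0169), lower in 3 of 3 lines. At day 0 none of these 3 was past 2-fold lower in shNFIB or past 2-fold higher in shMLL1, beside 6.13% and 9.26% of all genes. Since the test counts disagreement between lines as error, nothing is read from this. The p values come from the libraries that led to the choice of the genes and are adjusted over all genes tested. For most others the lines differed in direction, and the SE of the log2 fold change was 1.28 for Bst2 and 1.24 for Irf7.

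With a line left out, which leaves 4 libraries, the call of Ifit2 ended without shControl (log2 fold change -0.95, edgeR adjusted p = 0.0982) and that of Ifi47 without shControl (log2 fold change 1.35, edgeR adjusted p = 0.1) and without shNFIB (log2 fold change 0.70, edgeR adjusted p = 0.102). Both Ifi47 values had the sign of the full fit, and only that without shNFIB was smaller. Over all alternatives the edgeR and DESeq2 adjusted p ranged from 0.000431 to 0.0982 for Ifit2 and from 0.00109 to 0.102 for Ifi47. A difference between the lines in the effect of day could not be tested with 1 library per condition.

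Upstream of these genes, the ligands were nearly silent. Of 21 interferon genes 16 had 0 counts in all 6 libraries. Ifnb1, a type I interferon made by fibroblasts and named here after its values were seen, had 0 counts in shControl at both days, 3 in shNFIB at both days, and 14 in shMLL1 at day 0 and 0 at day 7. The 14 counts lie above the floor and the 3 counts do not. Among the others, Ifne had between 1 and 11 counts.

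Of 8 receptor and Janus kinase genes past the mean of 10 counts, 0 were past 2-fold in a knockdown line at either day, beside 5.89% to 10.9% of all genes in each comparison and direction. Jak1 and Ifngr2 had the largest differences in shNFIB at day 0, with log2 fold changes of 0.59 and 0.36, and Tyk2 and Ifnar1 in shMLL1, with -0.65 and -0.62. These lie opposite in direction to the interferon-stimulated genes. Irf3, the factor that is activated directly by RNA and DNA sensing, had a log2 fold change of -0.24 in shNFIB, and Irf2 of -0.44 in shMLL1 at day 0.

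Sensing adaptors and negative regulators had few genes past 2-fold at day 0, as did all genes, with 6.83% higher and 6.13% lower in shNFIB and 9.26% and 9.32% in shMLL1. Of 9 adaptors and kinases 0 were past 2-fold in shNFIB and 1 in shMLL1, Ticam1, with a log2 fold change of -1.12 (counting interval -1.30 to -0.94). The endosomal RNA receptor Tlr3 had -0.64 in shNFIB and 0.68 in shMLL1, and the mitochondrial adaptor Mavs 0.44 in shNFIB. Of 9 negative regulators 0 were past 2-fold in either line, with the phosphatase Ptpn6 at -0.82 and -0.99, the feedback inhibitor Socs3 at 0.65 in shNFIB and Pias1 at -0.69 in shMLL1. In the day test 4 of the 9 regulators were called lower at day 7, Rnaseh2a, Rnaseh2b, Rnaseh2c and Ptpn6, and 1 was called higher, Samhd1, beside 17% and 17.7% of all genes.

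Interferon-induced genes outside the 47 showed the same order in part. Of 61 such genes past the mean of 10 counts, 20 were past 2-fold lower in shNFIB at day 0 and 1 higher, beside 6.13% and 6.83% of all genes, and 34 were higher in shMLL1 and 1 lower, beside 9.26% and 9.32%, with median log2 fold changes of -0.59 and 1.10. At day 7 28 were higher in shNFIB and 1 lower, beside 7.53% and 10.9%. This list was chosen with earlier results of these data known, holds relatives of the 47 genes and uses the same libraries. Nothing is read from these counts. Ifi27l2a, a relative of Ifi27, stood at 101 CPM in shControl, 4.97 in shNFIB and 781 in shMLL1 at day 0, and 28.4, 75.9 and 62.8 in the same order at day 7. Unlike Ifi27 it was 20.3-fold lower in shNFIB and 7.73-fold higher in shMLL1 at day 0. Oas1g had 74, 0 and 1571 counts in shControl, shNFIB and shMLL1 at day 0, which makes it at least 24.4-fold lower in shNFIB. It is a close copy of Oas1a, and reads that match both may be lost at the filter on mapping quality. Slfn2, a member of the Schlafen family, stood at 5.57 CPM in shControl, 3.86 in shNFIB and 148 in shMLL1 at day 0, and 19.9, 73.7 and 36.5 in the same order at day 7. Plac8 stood at 0.595 CPM in shControl, 0.222 in shNFIB and 40.3 in shMLL1 at day 0, and 1.97, 3.69 and 37.7 in the same order at day 7. Both were high in shMLL1 at day 0, 26.5-fold and 67.3-fold above shControl, and Plac8 was still 19.1-fold higher there at day 7.

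Antigen presentation and cytokine lists were mixed. Of 13 genes of MHC class I and peptide loading 5 were past 2-fold higher in shMLL1 at day 0 and 1 lower in shNFIB, beside 9.26% and 6.13% of all genes, with medians of 0.63 and -0.47. H2-K1, a classical class I heavy chain whose sequence varies between mouse strains, stood at 22.8 CPM in shControl, 17.7 in shNFIB and 126 in shMLL1 at day 0, and 37.5, 77.0 and 26.3 in the same order at day 7. Nlrc5, the transactivator of class I genes, had a log2 fold change of 2.22 (counting interval 1.99 to 2.45) in shMLL1, Tap2 of -1.74 (counting interval -1.94 to -1.55) in shNFIB, and the proteasome activator Psme2 of -0.86. Of 4 measured class II genes 2 were lower in each knockdown line at day 0 and 0 higher, beside 6.13% of all genes lower in shNFIB and 9.32% in shMLL1. Cd74, the invariant chain, had -3.12 (counting interval -3.42 to -2.83) in shNFIB, H2-DMb1 -1.13 (counting interval -1.80 to -0.51) in shNFIB and -2.43 (counting interval -3.46 to -1.55) in shMLL1, and Ciita, the transactivator of class II genes, had 15 counts in shControl and 7 in shMLL1. Of 10 chemokines, cytokines and NF-kB targets 5 were higher in shMLL1 at day 0 and 1 lower, and 1 was higher and 1 lower in shNFIB, beside 9.26%, 9.32%, 6.83% and 6.13% of all genes in that order. Il6 stood at 1.41 CPM in shControl, 2.95 in shNFIB and 11.7 in shMLL1 at day 0, and 0.394, 1.49 and 0.164 in the same order at day 7. Ccl7 stood at 75.7 CPM in shControl, 113 in shNFIB and 616 in shMLL1 at day 0, and 119.7, 159 and 67.8 in the same order at day 7. Both were highest in shMLL1 at day 0 and lowest in shMLL1 at day 7. Ccl5, a chemokine that recruits lymphocytes, was 5.91-fold lower in shNFIB at day 0.

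Outside all lists, the 10 genes nearest to the median profile of the set over the 6 libraries, by root mean square distance of centred log2 CPM, were Gm48146, Gm7783, Gm12981, Bnip3, Higd1a, H2-T24, BC023105, B4galnt2, Trim34b and 5830428M24Rik, at distances from 0.332 to 0.518. Within the set the same distance was smallest for Xaf1 at 0.0692 and Igtp at 0.168 and largest for Rsad2 at 3.12. Bnip3, a mitophagy receptor induced by low oxygen, stood at 75.2, 40.6 and 291 CPM in shControl, shNFIB and shMLL1 at day 0 and 128, 176 and 196 at day 7. Higd1a, a mitochondrial protein also induced by low oxygen, stood at 42.9, 28.3 and 148 CPM in shControl, shNFIB and shMLL1 at day 0 and 46.4, 84.5 and 64.9 at day 7. Trim34b stood at 4.23, 1.30 and 14.3 CPM in shControl, shNFIB and shMLL1 at day 0 and 8.36, 8.39 and 11.3 at day 7, and H2-T24, a class I gene, at 3.10, 1.62 and 16.0 CPM in shControl, shNFIB and shMLL1 at day 0 and 7.31, 17.5 and 8.81 at day 7. All 4 were lowest in shNFIB at day 0. Gm48146, Gm7783, Gm12981 and 5830428M24Rik stood below or near 1 CPM in every library, so that their profiles rest on few counts.

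Part of the promoters carried letters of an interferon response element. RefSeq promoter windows of GRCm38.p6, from 250 bases before to 50 after the annotated start, were at hand for 36 of the 47 genes in 41 windows; Dhx58, Ifi27, Iigp1, Mx1, Mx2, Oas2, Parp14, Parp9, Rtp4, Usp18 and Zbp1 had no entry. The core of the interferon-stimulated response element was searched on both strands as GAAA and GAAA 2 bases apart, and the gamma-activated site as TTC and GAA 3 bases apart, which reads alike on both strands and can overlap the former. The response element core was present in 19 of the 41 windows (46.3%), against 1131 of all 32851 windows (3.44%). The gamma-activated letters were present in 8 of the 41 windows (19.5%), against 2726 of all (8.30%). Of genes past the mean of 10 counts, the 18 with the response element core had a median log2 fold change of -1.96 in shNFIB and 1.39 in shMLL1 at day 0, and the 17 without it -1.07 and 1.15. Ddx58 and Eif2ak2 had the core in their windows, though in shNFIB at day 0 Eif2ak2 was nearly level and Ddx58 was 1.34-fold lower. Irf7, Oasl2 and Ifi44, which differed widely, did not have these exact letters in their windows. Variant letters and sequence outside the windows were not searched, so that an element elsewhere would be missed. A match is a description of letters and not a site that was shown to be bound. The set was picked from known interferon targets and for these line differences, and neighbouring genes are not separate observations. Nothing is therefore read from the shares of windows or from the medians with and without the core.

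Stretches of the promoter windows, from 1 gene of each role with a core before the start, show the letters behind that count; they were taken from the most abundant such gene per kilobase and end before the RefSeq start of transcription; the Gbp2 gene of GENCODE M21 starts farther upstream, within the stretch. Each is given 5′ to 3′ in the direction of its gene, with the response element core in capitals, and where capitals run past 10 bases, cores overlap. They lie at chr10:128270248-128270315 on the plus strand for Stat2, chr19:34583343-34583446 on the plus strand for Ifit3, chr5:120907526-120907575 on the minus strand for Oas1a, chr4:156200845-156200926 on the minus strand for Isg15, chr3:142620574-142620643 on the plus strand for Gbp2 and chr8:71537557-71537632 on the minus strand for Bst2.
Stat2: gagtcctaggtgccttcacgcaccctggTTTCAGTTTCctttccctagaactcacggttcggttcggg
Ifit3: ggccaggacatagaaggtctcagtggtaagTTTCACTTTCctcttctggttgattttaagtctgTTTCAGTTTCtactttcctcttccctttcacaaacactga
Oas1a: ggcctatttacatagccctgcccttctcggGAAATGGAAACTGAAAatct
Isg15: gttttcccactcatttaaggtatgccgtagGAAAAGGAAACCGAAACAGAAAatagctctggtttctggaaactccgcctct
Gbp2: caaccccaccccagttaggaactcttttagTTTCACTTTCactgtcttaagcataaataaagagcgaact
Bst2: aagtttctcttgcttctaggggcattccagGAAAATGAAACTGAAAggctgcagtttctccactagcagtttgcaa
Isg15 held 3 overlapping cores, Oas1a and Bst2 2 overlapping cores each, and Ifit3 2 separate ones. Stat2 and Gbp2 held 1. The opening base of the last core lay 66 bases before the start in Isg15, 14 in Oas1a and 222 in Stat2.

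Some of the genes are neighbours. On GRCm38, 22 of the 47 genes lay within 500 kb of another of them, in 8 groups, and the other 25 lay alone; 16 chromosomes held at least 1. The 4 Ifit genes lay within chr19:34550694-34650009, a span of 99.3 kb, in the order Ifit2, Ifit3, Ifit3b and Ifit1, with Ifit2 nearly level at day 0 beside neighbours that were not. Psmb9, Tap1 and Psmb8 lay within chr17:34181987-34201454 and were below shControl in shNFIB at both days, at day 7 past 2-fold for Psmb8 alone. Oas2, Oas3 and Oas1a lay within chr5:120730333-120907521, Gbp7, Gbp3 and Gbp2 within chr3:142530342-142638008, and Parp14, Dtx3l and Parp9 within chr16:35832874-35972605. The other groups were the pairs Rsad2 with Cmpk2, Mx1 with Mx2 and Oasl2 with Oasl1. Genes of a group are near copies or neighbours and are not separate observations of the lines.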

How the data were processed

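The deposited values are raw counts per Ensembl gene; per the submitters' processing notes the authors used Trimmomatic 0.39, HISAT2 2.2.1, SAMtools 1.12 and HTSeq 0.11.1 on mm10 (GRCm38). Per the paper, reads were also filtered on mapping quality and PCR duplicates were removed before counting. The strand setting and annotation release of the counting are not given in the sources used here, and 21 of the 47 genes share exonic bases with another gene. Symbols and exon lengths came from GENCODE M21. The 47 genes and all lists were chosen with earlier results of these data known. CPM used TMM factors over 6 libraries, and fold changes a prior count of 0.125; a gene was called when past 2-fold among genes with a mean of at least 10 counts. Day was tested with edgeR 4.0.16 (R 4.3.3, filterByExpr, quasi-likelihood, line as block; BCV 0.277, 2 residual degrees of freedom); DESeq2 1.42.0, scipy 1.17.1 and pandas 2.3.3 were also used. Deviations of the 2 days of a line from the day means correlated at 0.423, 0.455 and 0.27 in shControl, shNFIB and shMLL1. Steps were tested on simulated data. Named genes were the hairpin targets, in each role the 3 of highest mean CPM per kb, Ddx58, the largest and smallest log2 fold change per line comparison among genes with at least 10 counts in both libraries, in each pathway list the 2 largest absolute log2 fold changes per line at day 0 among genes over 1 CPM, and the 10 nearest profiles; a gene that this rule names is not reported here. All other genes named with values, such as Ifih1, Ifit3b, Oasl1, Oasl2, Herc6, Mx1, Mx2, Gbp3, Gbp7, Iigp1, Ifi44 and Xaf1, were chosen after their values were seen. Alternatives were other scalings, filters, prior counts and call rules, a test without the block, and each line left out.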

Additional observations from a re-analysis of the deposited data

Results flagged for a closer look

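Comparing the same lines at both days gave opposite signs. The median log2 fold change of the 46 genes in shNFIB against shControl was -1.89 at day 0 and 1.12 at day 7. For day 7 against day 0 the median was 3.24 in shNFIB and -1.42 in shMLL1. The genes were chosen for opposite changes. With 1 library per condition neither difference was tested.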

How the results depend on the processing

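Of 290 recomputed values 257 stayed the same, a count within 1.5 times, a log2 fold change of a named gene within its counting interval and a tested gene with its call kept. The shNFIB line at day 0 had 2 genes higher, which became 1 with a prior count of 2 and 0 when the whole 95% interval had to pass 2-fold. Genes lower in shNFIB at day 7 went from 1 to 2 with library size alone. The 1 gene lower in shMLL1 at day 0, Ifi27, became 0 with DESeq2 size factors and 0 with the whole interval, and the 5 higher in shMLL1 at day 7 became 3 with the whole interval. In the day test the 2 genes called higher became 6 without a filter. With a line left out the day contrast rests more heavily on values that led to the choice of the genes, so that how many of them were called is not read as a result; the genes called higher ranged from 1 to 18 and those called lower from 0 to 8, and over all genes the calls ranged from 1213 to 2599 higher and from 1197 to 2542 lower, on fewer libraries. Without the replicate block of lines the test called 2 higher and 1 lower, the same counts as with it, and over all genes 2149 higher and 1850 lower. The cause of these changes was not tested. Library size alone moved the median of all genes to 0.22 for day 7 against day 0 in shMLL1, from 0.02 with TMM, and turned the sign of 7 genes in shMLL1 at day 7, of which 0 were past 2-fold. Oasl1, Rsad2, Cmpk2 and Trim25 had too few counts in shControl at day 0 for a lower level in shNFIB to be measured.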

Other observations

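Of genes of the PYHIN cluster, which encode DNA-binding proteins of the interferon response, Ifi207, Ifi204 and Mndal rose in the day test. They belong to the 61 interferon-induced genes outside the 47. Of these 61, the day test called 4 higher and 3 lower, beside 17.7% and 17% of all genes. Ifi207 stood at 1.44 CPM in shControl, 2.57 in shNFIB and 22.1 in shMLL1 at day 0, and 203, 753 and 554 in the same order at day 7. It rose in the day test (log2 fold change 6.66, SE 0.79, edgeR adjusted p = 0.00195), higher in 3 of 3 lines. Ifi204 rose as well (log2 fold change 2.32, SE 0.37, edgeR adjusted p = 0.00551), as did Mndal (log2 fold change 2.16, SE 0.43, edgeR adjusted p = 0.011), each higher in 3 of 3 lines. Both knockdown lines stood above shControl at day 7 for these genes, with Ifi207 3.71-fold higher in shNFIB and 2.72-fold in shMLL1. Ifi203 stood at 47.1 CPM in shControl, 43.7 in shNFIB and 145 in shMLL1 at day 0, and 65.9, 323 and 177 in the same order at day 7, also higher at day 7 in 3 of 3 lines, and did not reach the threshold (day log2 fold change 1.18, edgeR adjusted p = 0.12). Line differences were large as well: Mndal stood at 12.6 CPM in shControl, 10.5 in shNFIB and 49.9 in shMLL1 at day 0, and 28.3, 113 and 187 in the same order at day 7, with shMLL1 at day 0 above shControl at day 7. The genes are close copies, so that reads matching more than 1 of them may be lost at the filter on mapping quality. They were picked out after their values were seen.

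Over the pathway lists outside the 47 genes, 119 were tested for day and 11 were higher and 12 lower at day 7, beside 17.7% and 17% of all genes. Without shMLL1 35 of 119 were higher and 12 lower, beside 2435 and 2542 of 15811 genes. Without shNFIB 10 of 120 were higher and 21 lower, beside 2599 and 2294 of 16299. Without shControl 6 of 119 were higher and 7 lower, beside 1213 and 1197 of 15937. How many were called is therefore not read as a result. Cgas, the cytosolic DNA sensor, fell (log2 fold change -1.74, SE 0.24, edgeR adjusted p = 0.0035), while the kinase Ikbke rose (log2 fold change 1.80, SE 0.27, edgeR adjusted p = 0.00437), each in 3 of 3 lines. Slfn9 fell (log2 fold change -2.86, SE 0.25, edgeR adjusted p = 0.000785) in 3 of 3 lines. Cgas, Ikbke and Slfn9 were picked out after their values were seen.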
